A study of Mus musculus with 40 samples.

Results

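The 6 genes described here are the immediate early transcription factors *Egr1*, *Egr2*, *Egr3*, *Nr4a1*, *Nr4a2*, and *Nr4a3*, chosen by their symbols from the 17402 genes listed in a genotype experiment and the 15399 listed in a CsA experiment on mouse aorta. All 6 are listed once in each table and all 6 passed the filter on low values. Their signal was followed over hours of angiotensin-II (Ang-II), by the loss of the calcineurin (Cn) regulatory subunit in smooth muscle, and by pretreatment with cyclosporin A (CsA), the inhibitor of Cn phosphatase activity.

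Immediate early genes are transcribed within minutes of a stimulus from factors already present in the cell, and their messages are short-lived. The EGR proteins are zinc-finger factors that bind GC-rich sites, are driven through serum response factor and ETS partners downstream of MAP kinases, and are held in check by the NAB corepressors. The NR4A proteins are orphan nuclear receptors with no known physiological ligand. In many cells their genes respond to cAMP and calcium through CREB and MEF2, and in vascular smooth muscle both families have been studied in growth and injury of the wall.

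In the genotype experiment, male mice with floxed Ppp3r1 (CnB1-flox, the gene of Cn subunit B1) received tamoxifen at 1 mg/day for 5 days and were used 6 weeks later. By the sample labels Cn-Ctl mice were floxed and Cre-negative, although the study's definition of this control also admits Cre-positive mice with the unfloxed gene. SM-Cn-/- mice carried Myh11-CreERT2, which is driven by a smooth muscle promoter, so that other cells of the wall keep the gene. Both genotypes were sampled untreated and after 2, 6, and 24 h of Ang-II at 1 µg/kg/min from a minipump, with 3 libraries per group except 2 for untreated Cn-Ctl and 2 for Cn-Ctl at 24 h. By the study's methods, 1 untreated Cn-Ctl replicate was discarded because it lay far from the other 2 in a principal component analysis. Every Cn-Ctl change against untreated and every genotype interaction rests on the 2 that were kept. In the CsA experiment, male C57BL/6J mice (WT) or the same strain after 5 days with a CsA minipump were sampled untreated and after 2 and 24 h of Ang-II at the same dose, with 3 libraries per group. WT mice had no pump before Ang-II, so that CsA and the earlier pump cannot be told apart. Treated Cn-Ctl, WT, and CsA mice were kept only if their systolic pressure exceeded 130 mmHg. Treated SM-Cn-/- mice were taken without this rule, since by the study none of them had raised pressure after Ang-II. The treated genotypes thus differ in blood pressure and in this selection, and neither can be told apart from the genotype. By the labels the genotypes also differ in Cre, which cannot be told apart from the loss of Cn. SM-Cn-/- mice without proof of deletion, and CsA mice in which the drug did not block NFAT dephosphorylation in the thymus, were removed. Each library pools 3 aortas freed of adventitia and perivascular tissue, so that p-values measure the spread between pools.

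Libraries held 2.73 M to 10.25 M assigned reads in the genotype experiment and 18.98 M to 38.9 M in the CsA experiment. Ppp3r1 signal was 87.6 ± 27.5 (SD, n = 10) in Cn-Ctl and 73.0 ± 22.5 (SD, n = 12) in SM-Cn-/- libraries, which overlapped, and the table does not separate the deleted part of the gene from the rest. All 6 smooth muscle markers (among them Myh11 and Acta2) had reads in every library, but so had the markers of endothelium, fibroblasts, macrophages, adipocytes, and red blood cells. In Cn-Ctl at 2 h, replicate 2 held the highest signal of 6 of 6 members and replicate 1 the lowest of 5, and in CsA at 2 h replicate 1 held the lowest of 6 of 6. At 24 h replicate 3 held the lowest signal of 6 of 6 members in Cn-Ctl, where replicate 2 held the highest, and in WT.

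The sequences upstream of these genes are shown because the members moved together and because CREB and serum response factor sites are the textbook entry points of this response. RefSeq promoter windows (GRCm38.p6, 250 bases before to 50 after a start) were at hand for 4 of the 6 members, and the bases before the start that lie outside annotated exons are printed, 5′ to 3′. Capitals mark TGACG on either strand, the core of the CREB site, and in *Egr2* also the CArG box, the site of serum response factor.
Egr2, chr10:67537619-67537868, + strand: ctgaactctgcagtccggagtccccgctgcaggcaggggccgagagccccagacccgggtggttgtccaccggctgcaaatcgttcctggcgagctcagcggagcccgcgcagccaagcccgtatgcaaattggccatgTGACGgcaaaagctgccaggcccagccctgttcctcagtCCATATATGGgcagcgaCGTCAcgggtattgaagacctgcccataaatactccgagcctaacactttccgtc
Nr4a1, chr15:101266596-101266845, + strand: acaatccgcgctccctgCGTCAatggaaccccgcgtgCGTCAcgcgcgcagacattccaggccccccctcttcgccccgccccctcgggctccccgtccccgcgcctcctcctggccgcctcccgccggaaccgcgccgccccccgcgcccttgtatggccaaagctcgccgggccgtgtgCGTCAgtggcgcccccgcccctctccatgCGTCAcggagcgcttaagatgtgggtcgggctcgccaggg
Nr4a2, chr2:57124004-57124253, − strand: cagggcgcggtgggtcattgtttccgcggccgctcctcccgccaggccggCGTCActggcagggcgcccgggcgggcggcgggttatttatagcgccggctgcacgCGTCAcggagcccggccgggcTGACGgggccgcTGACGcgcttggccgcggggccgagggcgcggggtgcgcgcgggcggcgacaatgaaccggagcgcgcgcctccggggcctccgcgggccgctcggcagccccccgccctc
Nr4a3, chr4:48045055-48045152, + strand: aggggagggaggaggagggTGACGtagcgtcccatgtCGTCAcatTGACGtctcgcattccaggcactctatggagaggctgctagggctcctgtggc

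TGACG was found 4 times in the whole window of *Nr4a1*, of *Nr4a2*, and of *Nr4a3*. Of all 32851 windows of the table outside chromosome 18, 20.8% held TGACG at least once and 76 (0.231%) held it 4 times or more. The full palindrome TGACGTCA, which contains TGACG on both strands and is in 1.79% of all windows, was in none of the members' windows. *Egr2* has 5 windows, of which 4 hold a CArG box (1.63% of all windows) and 3, which overlap each other, hold TGACG 2 times. GCGNGGGCG, the EGR site, was found once in the *Nr4a1* and once in the *Nr4a2* window (5.55% of all windows), GGAAG, the ETS core, 2 times in 1 *Egr2* window (71.4%), and neither AAAGGTCA, the NR4A site (1.51%), nor TGANTCA, the AP-1 site (7.81%), was found. These matches describe letters in a window and not binding. The cut of 4 is the number found in the members' own windows. The other windows were not matched for base composition, so that 0.231% is no test of enrichment.

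Values below are signal, in which 0.5 is added to the reads counted for a gene and the sum is scaled by the size of the library, close to RPM. Fold changes are differences of log2(signal + 0.5) with their SE, and a gene was called when the adjusted p of limma with Benjamini-Hochberg correction over the 14424 (genotype) or 13738 (CsA) protein-coding genes tested was under 0.05. Comparisons with untreated libraries share those libraries across hours, as the interactions do, and are not independent of each other. The scale understates changes of low genes such as *Egr2*.

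In Cn-Ctl aortas 2 h after Ang-II, 4 of the 6 members rose, against 6.23% of all genes called. The members' median log2 fold change was 2.01, against 0.01 over all genes. *Egr1*, the EGR factor with the highest signal in this tissue, was 78.1 and 84.6 in the untreated libraries and 173, 388, and 571 at 2 h. All 3 treated libraries lay above both untreated ones, as in 20.6% of all genes, and differed widely among themselves. The fold change was 2.05 ± 0.44 (SE, adjusted p 0.00435). As in any bulk sample, more cells of a type and more RNA per cell cannot be told apart. *Egr2*, a factor known from nerve myelination and lymphocytes, was at 1.53 and 2.28 untreated and at 4.49, 11.6, and 12.8 at 2 h. The libraries did not overlap, as in 20.6% of all genes with a rise, and the fold change of 1.97 ± 0.71 did not pass (adjusted p 0.112). *Egr3*, its close relative, was at 6.19 and 12.7 untreated and 7.48, 15.7, and 18.5 at 2 h, so that the groups overlapped (0.52 ± 0.46, adjusted p 0.62).

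All 3 NR4A genes rose. *Nr4a1* (Nur77) was 47.7 and 59.2 untreated and 144, 192, and 318 at 2 h. It rose without overlap, as did 20.6% of all genes, with a fold change of 1.95 ± 0.26 (adjusted p 2.41e-05). *Nr4a2* (Nurr1), best known for its role in dopaminergic neurons, went from 8.30 and 9.10 to 25.6, 33.9, and 68.0 (2.10 ± 0.44, adjusted p 0.00395). *Nr4a3* (Nor-1), a factor studied in smooth muscle proliferation, had the largest change of the 6. It was 10.9 and 19.6 untreated and 175, 262, and 288 at 2 h, a fold change of 3.97 ± 0.30 or 15.7-fold (adjusted p 2.58e-08). Its lowest treated library lay far above its highest untreated one.

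The calls of *Nr4a1* and *Nr4a3* at 2 h held without any one library. That of *Egr1* was lost without untreated replicate 2 (adjusted p 0.0629) and that of *Nr4a2* without untreated replicate 3 (0.0634), each of which leaves a lone untreated library assumed to vary like the other groups. Markers of other cells moved in the same comparison: 2 of 6 fibroblast and 1 of 6 macrophage markers rose, the summed fibroblast signal going from 1243 to 2118 untreated to 2445 to 4167 at 2 h and the macrophage sum from 78.1 to 112 to 119 to 329. Of 6 smooth muscle markers 1 rose too. Their part in the result was not tested.

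At 6 h in Cn-Ctl, 3 of 6 members were above untreated, against 3.97% of all genes. *Egr1* was 215, 308, and 405 (1.87 ± 0.44, adjusted p 0.0144), *Nr4a1* was 117, 131, and 160 (1.33 ± 0.26, adjusted p 0.00323), and *Nr4a3* was 71.9, 78.3, and 100 (2.46 ± 0.30, adjusted p 4.6e-05). In all 3 genes the libraries lay above all the untreated ones, as in 17.35% of all genes. *Egr2* (6.79, 7.05, and 7.36) was also clear of them, with 1.67 ± 0.71 and adjusted p 0.223. *Nr4a2* was at 10.5, 12.7, and 24.9 (0.75 ± 0.44, adjusted p 0.422) and *Egr3* at 8.47, 14.6, and 22.1 (0.63 ± 0.46, adjusted p 0.546). At 6 h 1 of 6 fibroblast and 1 of 6 macrophage markers were above untreated, and their part was not tested. The call of *Egr1* was lost without untreated replicate 2 (0.146), without untreated replicate 3 (0.113), and without 6 h replicate 2 (0.0614), and that of *Nr4a1* without untreated replicate 2 (0.0892).

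Between 2 and 6 h, *Nr4a3* was the only member called, lower at 6 h by −1.51 ± 0.27 (adjusted p 0.0039, 1 of 6 against 1.67% of all genes). *Nr4a2* was lower by −1.35 ± 0.40, with no overlap of libraries, as were 11.36% of all genes, and missed the threshold (adjusted p 0.0826). *Egr1* differed by −0.17 ± 0.39 and *Egr3* by 0.10 ± 0.41 over the same hours, both with overlap. The intervals of those differences, −0.98 to 0.64 and −0.76 to 0.97, hold changes in either direction. Of 6 smooth muscle markers 1 fell between these hours, and its part was not tested.

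By 24 h no member was called against untreated in Cn-Ctl (0 of 6 by limma, against 5.62% of all genes, with 2 of 6 at an unadjusted p under 0.05). *Egr1* was at 59.2 and 63.4, *Nr4a1* at 63.3 and 70.2, *Nr4a2* at 12.3 and 13.8, and *Nr4a3* at 26.8 and 28.9. *Nr4a3* lay above both untreated libraries (0.91 ± 0.33, unadjusted p 0.0126, adjusted p 0.117), as did *Nr4a1* (0.32 ± 0.28, adjusted p 0.56) and *Nr4a2* (0.56 ± 0.48, adjusted p 0.561). With 2 libraries in each group, 25.3% of all genes had both 24 h libraries above both untreated ones, and 24.5% had both below. *Egr3*, at 2.46 and 2.71, lay below both untreated libraries (−1.61 ± 0.51, unadjusted p 0.00453, adjusted p 0.0685). DESeq2 on recovered reads called *Egr3* (adjusted p 0.0263), and edgeR called 0 members. At 24 h 1 of 6 smooth muscle, 1 of 6 fibroblast, and 1 of 6 macrophage markers were above untreated, and their part was not tested. *Egr2* had 23 reads in one library (signal 3.26) and 0 reads in the other, which held 3.97 M reads and in which a count of 0 allows up to 3 reads or a signal of 0.906.

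From 6 to 24 h, 3 of 6 members fell, against 1.27% of all genes. *Egr1* was lower by −2.28 ± 0.44 (adjusted p 0.0102), *Egr3* by −2.24 ± 0.46 (adjusted p 0.016), and *Nr4a3* by −1.55 ± 0.30 (adjusted p 0.0121). *Nr4a1* was lower by −1.01 ± 0.26, without overlap, as were 12.04% of all genes, and just missed the threshold (adjusted p 0.0524). It was called by DESeq2 on recovered reads (0.0127) and with the filter on a mean signal of at least 5 (0.0482). All 3 calls were lost without Cn-Ctl 24 h replicate 3 (adjusted p 0.142, 0.171, and 0.154) and with only these groups in the fit (0.0718, 0.373, and 0.134). Without 6 h replicate 2, *Egr3* (0.0903) and *Nr4a3* (0.0593) were lost as well, and without 24 h replicate 2 *Egr2* was called (0.0165).

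**Figure D1:**
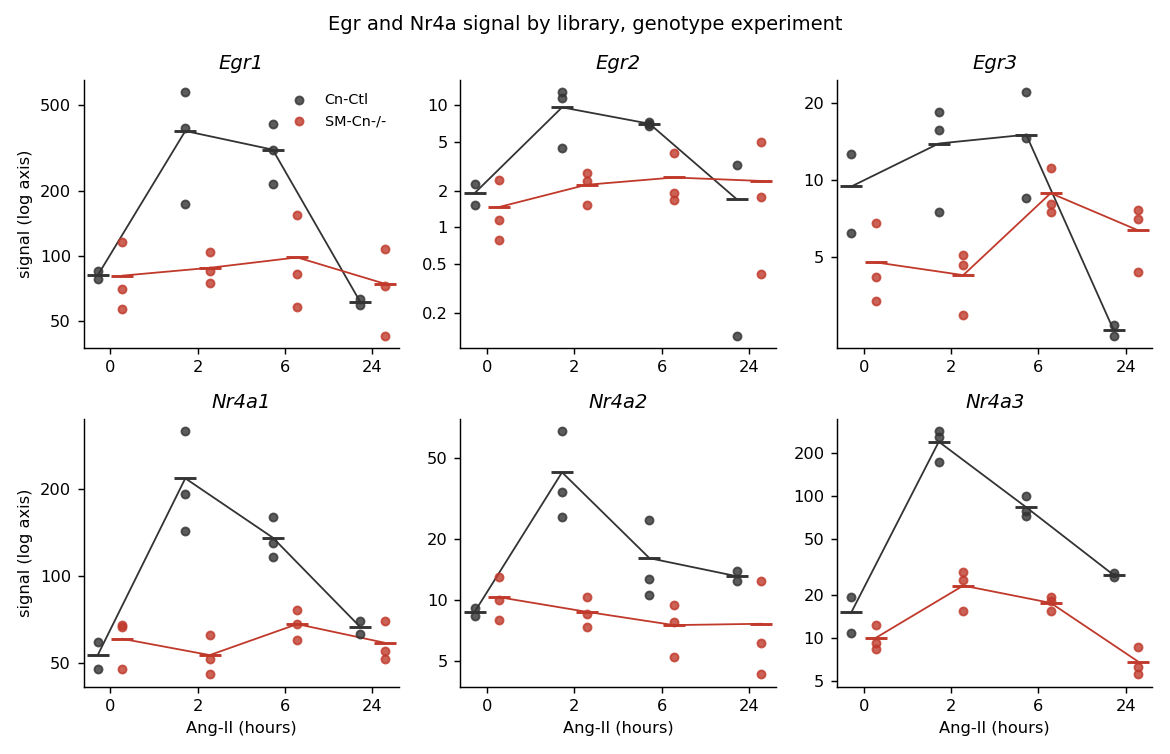
Signal of the 6 genes in each library of the genotype experiment (points, log axis) by hours of Ang-II, equally spaced, with the group mean as a bar joined by lines. Cn-Ctl is dark and SM-Cn-/- red. At 2 h all 3 SM-Cn-/- libraries lie below all 3 Cn-Ctl libraries in each of the 6 genes (11.99% of all genes). Nr4a3 goes from a mean of 15.2 to 242 in Cn-Ctl and from 10.1 to 23.5 in SM-Cn-/-.

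In SM-Cn-/- aortas, *Nr4a3* was the only member called 2 h after Ang-II (1 of 6, against 1.13% of all genes). It was 8.42, 9.31, and 12.5 untreated and 15.4, 25.9, and 29.1 at 2 h. It rose without overlap, as did 11.04% of all genes, with a fold change of 1.15 ± 0.27 or 2.22-fold (adjusted p 0.0367). The call was lost in 4 of 6 fits that left out 1 library: without untreated replicate 2 (0.0764) or 3 (0.23) and without 2 h replicate 1 (0.202) or 2 (0.234), and with only these groups in the fit (0.091). *Egr1* was 56.5, 70.3, and 116 untreated and 75.2, 84.8, and 104 at 2 h. *Nr4a1* was 47.7, 66.5, and 67.9 untreated and 45.7, 51.7, and 62.6 at 2 h. *Nr4a2* was 7.99, 9.99, and 12.9 untreated and 7.35, 8.48, and 10.3 at 2 h. The libraries of the 2 groups overlapped in each of these 3 genes. Their fold changes were 0.17 (95% interval −0.63 to 0.98), −0.18 (−0.65 to 0.30), and −0.21 (−1.03 to 0.61). *Egr2* (0.54 ± 0.63) and *Egr3* (−0.13 ± 0.41) overlapped too.

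At 6 h no member was called in SM-Cn-/- (0 of 6 by limma, against 2.34% of all genes, with 2 of 6 at an unadjusted p under 0.05). *Nr4a3* (15.4, 18.3, and 19.4) and *Egr3* (7.46, 8.07, and 11.1) were clear of the untreated libraries, with changes of 0.80 ± 0.27 (adjusted p 0.129) and 0.87 ± 0.41 (adjusted p 0.301). Such a rise without overlap was seen in 10.1% of all genes. The other 4 members overlapped with untreated. Of 6 fibroblast markers 1 was above untreated at 6 h, and its part was not tested. At 24 h there was none either (0 of 6 by limma, against 0.79% of all genes, with 0 of 6 at an unadjusted p under 0.05), with changes from −0.53 (*Nr4a3*) to 0.40 (*Egr3*). Between 2 and 6 h no member was called (0 of 6 by limma, against 1.41%, with 1 of 6 at an unadjusted p under 0.05). *Egr3* was higher at 6 h in 3 of 3 libraries (0.99 ± 0.41, adjusted p 0.183), as were 9.79% of all genes. Between these hours 1 of 6 fibroblast and 1 of 6 macrophage markers rose, and their part was not tested.

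From 6 to 24 h *Nr4a3* fell in SM-Cn-/- by −1.33 ± 0.27, to 5.57, 6.26, and 8.74 (adjusted p 0.0314, 1 of 6 against 0.305% of all genes). That call held only without 6 h replicate 1 among the 6 left-out libraries (adjusted p 0.0405 to 0.169), and it was lost with only these groups in the fit (0.2). In these 5 SM-Cn-/- comparisons edgeR and DESeq2 on recovered reads called *Nr4a3* at the same steps and no other member.

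Untreated SM-Cn-/- and Cn-Ctl aortas did not differ in any member by this test (0 of 6 by limma, against 0.0139% of all genes, with 0 of 6 at an unadjusted p under 0.05), nor by edgeR or DESeq2 on recovered reads. The libraries overlapped in all 6 genes. The intervals are wide, from −1.85 to 0.07 for *Egr3*, the member with the largest difference, and from −0.36 to 0.70 for *Nr4a1*, that with the narrowest.

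After 2 h of Ang-II, 5 of 6 members were lower in SM-Cn-/- than in Cn-Ctl, against 3.7% of all genes called. All 3 SM-Cn-/- libraries lay below all 3 Cn-Ctl libraries in 6 of 6 members, and in 11.99% of all genes. The median difference was −1.95, against −0.00119 over all genes. *Egr1* was at 25.9% of the Cn-Ctl level (−1.95 ± 0.39, adjusted p 0.00421), *Nr4a1* at 25.8% (−1.95 ± 0.23, adjusted p 1.43e-05), and *Nr4a2* at 23.1% (−2.11 ± 0.40, adjusted p 0.00236). These 3 calls held without any one library. *Nr4a3* was at 9.78% (−3.35 ± 0.27, adjusted p 2.06e-07), the largest difference of the 6. *Egr3* was at 34.4% (−1.54 ± 0.41, adjusted p 0.0385), a call that among the 6 left-out libraries held only without Cn-Ctl replicate 1 (0.0215 to 0.209) and was lost with only these groups in the fit (0.066). *Egr2*, at 1.54, 2.39, and 2.77 in SM-Cn-/-, was not called (−1.79 ± 0.63, adjusted p 0.146).

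Beside this difference, 2 of 6 smooth muscle markers were lower and 1 of 6 endothelial markers was higher in SM-Cn-/- at 2 h. The summed smooth muscle signal was 26840 to 34900 in Cn-Ctl and 24620 to 30880 in SM-Cn-/-, and the endothelial sum 299 to 543 and 647 to 857. The part of these shifts in the result was not tested.

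Whether the response itself differed is tested by the interaction of genotype with Ang-II, the SM-Cn-/- change minus the Cn-Ctl change. It passed for 2 of 6 members, against 0.513% of all genes: *Nr4a1* (−2.13 ± 0.34, adjusted p 0.0033) and *Nr4a3* (−2.82 ± 0.41, adjusted p 0.00161). *Nr4a3* held without any one library, and *Nr4a1* was lost only without untreated Cn-Ctl replicate 2 (0.0585). *Nr4a2* (−2.32 ± 0.59, adjusted p 0.106) and *Egr1* (−1.87 ± 0.58, adjusted p 0.263) pointed the same way without passing. DESeq2 on recovered reads called those as well (adjusted p 0.00767 and 0.0123), which makes 4 of 6, and *Nr4a2* also passed with only these groups in the fit (0.047). *Egr2* and *Egr3* had −1.43 ± 0.95 and −0.65 ± 0.62, whose intervals include 0.

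At 6 h, 3 of 6 members were lower in SM-Cn-/- than in Cn-Ctl, against 1.98% of all genes. *Egr1* was 57.8, 82.5, and 154 in SM-Cn-/- (−1.72 ± 0.39, adjusted p 0.0203), *Nr4a1* 60.2, 68.4, and 76.2 (−0.98 ± 0.23, adjusted p 0.0237), and *Nr4a3* was at 21.8% of Cn-Ctl (−2.20 ± 0.27, adjusted p 6.8e-05). The libraries did not overlap in those 3 genes, nor in *Egr2* and *Nr4a2*, which were not called (adjusted p 0.324 and 0.239). All SM-Cn-/- libraries lay below all Cn-Ctl libraries in 7.74% of all genes. *Egr1* and *Nr4a1* were lost in 4 of 6 fits without 1 library each: both without Cn-Ctl 6 h replicate 1 (0.051 and 0.0508), SM-Cn-/- 6 h replicate 2 (0.0898 and 0.0859), or replicate 3 (0.157 and 0.135), *Egr1* without Cn-Ctl replicate 2 (0.119), and *Nr4a1* without Cn-Ctl replicate 3 (0.0892), and both with only these groups in the fit (0.0944 and 0.0931). The interaction at 6 h passed for 0 of 6 members by limma, against 0.0624% of all genes, with 3 of 6 at an unadjusted p under 0.05. It passed for 0 members by edgeR and for 1, *Nr4a3*, by DESeq2 (0.0351).

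At 24 h *Nr4a3* was the only member called, lower in SM-Cn-/- (−1.97 ± 0.30, 25.5% of Cn-Ctl, adjusted p 0.000546, 1 of 6 against 4.94% of all genes), and it held without any one library. *Egr3* was higher in SM-Cn-/- in 3 of 3 libraries (4.37, 7.03, and 7.66 against 2.46 and 2.71) and was not called (1.12 ± 0.46, adjusted p 0.2). The interaction at 24 h passed for 0 of 6 by limma, against 0.513% of all genes, with 2 of 6 at an unadjusted p under 0.05, and for none by edgeR or DESeq2. In the difference between genotypes at 24 h, 2 of 6 endothelial markers were higher in SM-Cn-/- (summed signal 1059 to 1127 against 444 to 469) and 1 of 6 smooth muscle and 1 of 6 fibroblast markers lower, and their part was not tested. The largest interaction terms were 2.01 ± 0.66 for *Egr3* (adjusted p 0.193) and −1.44 ± 0.43 for *Nr4a3* (adjusted p 0.145).

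Ordered by level over the 8 groups of the genotype experiment, Cn-Ctl at 2 h and at 6 h held the first places in all 6 genes, with 6 h first in *Egr3*. Those neighbours were separate in *Nr4a2* and *Nr4a3* and overlapped in the other 4 genes. Below them the groups of *Egr1* had means from 61.3 to 98.2, and those of *Nr4a1* from 53.3 to 68.3, with every neighbour overlapping the next. In *Nr4a3* the next place was Cn-Ctl at 24 h, whose libraries were clear of those at 6 h and overlapped those of SM-Cn-/- at 2 h, and the last was SM-Cn-/- at 24 h. In *Egr3* the last place was Cn-Ctl at 24 h, clear of the group above it.

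The CsA experiment was sequenced more deeply and scaled separately, so that its levels are compared only within it. In WT aortas 2 h after Ang-II, 6 of 6 members rose, against 21.4% of all genes called. In each member 3 of 3 treated libraries lay above 3 of 3 untreated ones, as in 20.3% of all genes. *Egr1* was 61.9, 71.1, and 109 untreated and 489, 606, and 610 at 2 h, a fold change of 2.84 ± 0.29 (adjusted p 4.76e-06). *Egr2* was 0.955, 1.44, and 2.45 untreated and 8.65, 10.5, and 11.7 at 2 h (2.40 ± 0.34, adjusted p 0.000137). *Egr3* was 5.77, 6.88, and 9.83 untreated and 12.4, 15.7, and 19.4 at 2 h (1.04 ± 0.34, adjusted p 0.0402), the smallest change of the 6.

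*Nr4a1* was 46.3, 88.2, and 153 untreated, the widest spread of the 6 before treatment, and 399, 416, and 443 at 2 h (2.28 ± 0.36, adjusted p 0.000288). *Nr4a2* was 7.98, 9.09, and 10.4 untreated and 33.0, 34.9, and 36.2 at 2 h (1.87 ± 0.15, adjusted p 7.51e-07). *Nr4a3* was 16.5, 21.1, and 21.5 untreated and 212, 245, and 293 at 2 h (3.63 ± 0.25 or 12.4-fold, adjusted p 1.6e-07), again the largest change. The call of *Egr3* was lost without untreated replicate 1 (0.148) or 2 (0.108), without 2 h replicate 1 (0.0978) or 3 (0.15), and under quantile normalization (0.0514). The other 5 calls held without any one library. Of 6 smooth muscle markers 2 rose in the same comparison, and no marker of endothelium, fibroblasts, or macrophages was called.

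Per kilobase of exon, *Nr4a1* (27.4) and *Egr1* (18.01) had the highest mean signal in untreated WT, followed by *Nr4a3* (3.29), *Nr4a2* (2.25), *Egr3* (1.70), and *Egr2* (0.476). At 2 h *Egr1* (127) and *Nr4a1* (119) still led, and *Nr4a3* reached 41.8. *Nr4a2* (8.54), *Egr3* (3.59), and *Egr2* (3.02) stayed low beside them.

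By 24 h in WT, 3 of 6 members differed from untreated, against a background of 35% of all genes, which leaves this count no result about the members. *Nr4a2* (12.4, 17.8, and 19.1) was above untreated (0.80 ± 0.15, adjusted p 0.00084), as was *Nr4a3* (31.9, 37.5, and 39.9) by 0.87 ± 0.25 (adjusted p 0.0137). *Egr3* (2.48, 3.61, and 4.33) was below untreated (−1.01 ± 0.34, adjusted p 0.0318), without overlap, as were 25.6% of all genes. *Egr1* (30.9, 50.6, and 63.5) had −0.75 ± 0.29 (adjusted p 0.0516) and *Egr2* 0.86 ± 0.34 (adjusted p 0.064), and DESeq2 called both, which makes 5 of 6. *Egr1* was also called without untreated replicate 1 (0.0396) or 24 h replicate 1 (0.0235), and *Egr2* without untreated replicate 3 (0.0313). *Egr3* was lost without untreated replicate 2 (0.0635) or 3 (0.131) or 24 h replicate 2 (0.0676) or 3 (0.121), and *Nr4a3* without untreated replicate 3 (0.0598). From 2 to 24 h, 6 of 6 members fell, against 36.2% of all genes, by −3.60 ± 0.29 for *Egr1*, −2.75 ± 0.25 for *Nr4a3*, −2.54 ± 0.36 for *Nr4a1*, −2.04 ± 0.34 for *Egr3*, −1.54 ± 0.34 for *Egr2*, and −1.08 ± 0.15 for *Nr4a2* (adjusted p 0.0026 or lower). These calls held without any one library. At 24 h 6 of 6 macrophage, 3 of 6 fibroblast, 2 of 6 endothelial, and 1 of 6 adipocyte markers were above untreated, and 2 of 6 smooth muscle markers below. From 2 to 24 h, 5 of 6 macrophage, 3 of 6 fibroblast, and 1 of 6 endothelial markers rose, and 2 of 6 smooth muscle markers fell. The macrophage sum was 92.6 to 136 untreated, 80.5 to 328 at 2 h, and 242 to 356 at 24 h, and the part of these shifts was not tested.

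**Figure D2:**
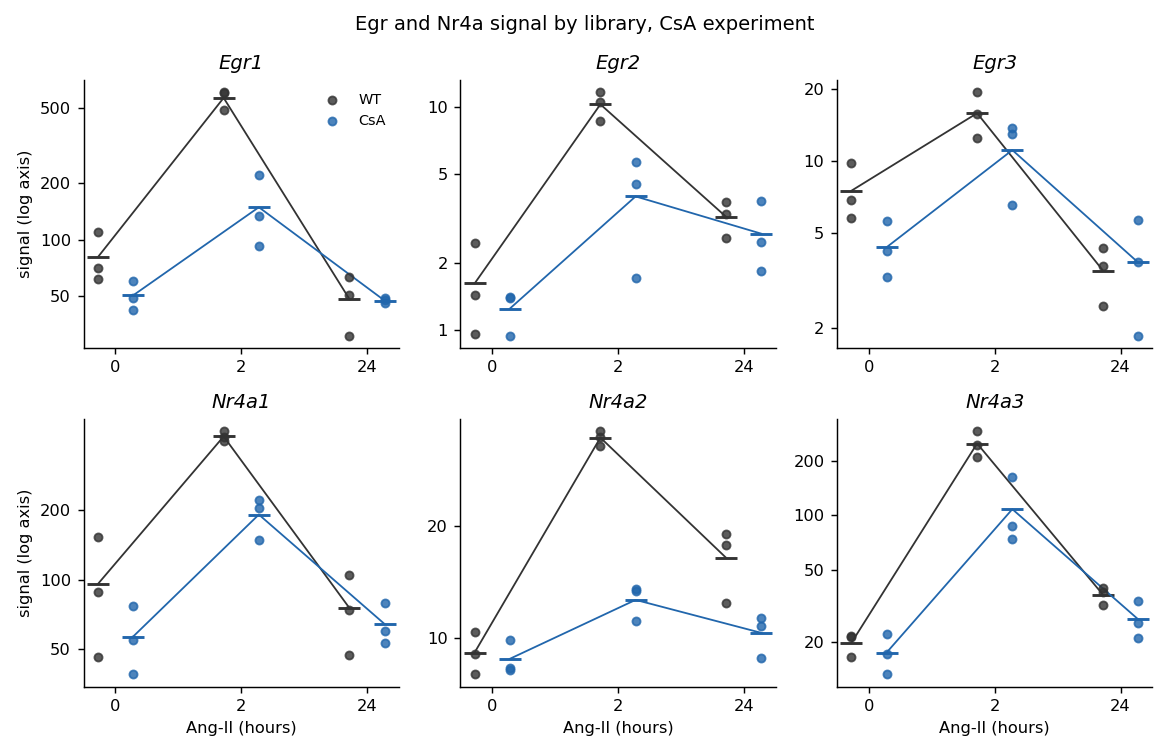
Signal of the 6 genes in each library of the CsA experiment (points, log axis) by hours of Ang-II, equally spaced, with the group mean as a bar joined by lines. WT is dark and CsA blue. At 2 h the CsA libraries lie below all WT libraries in 5 of the 6 genes (10.4% of all genes) and overlap them in Egr3. In all 6 genes the CsA libraries at 2 h lie above the untreated CsA libraries (19.95% of all genes).

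In CsA-pretreated aortas 6 of 6 members rose 2 h after Ang-II, against 20.1% of all genes. Each member had 3 of 3 libraries above 3 of 3 untreated ones, as had 19.95% of all genes. *Nr4a3* was 13.2, 17, and 22.03 untreated and 74.2, 86.9, and 164 at 2 h (2.54 ± 0.25, adjusted p 1.3e-05). *Nr4a1* was 38.9, 54.6, and 76.7 untreated and 150, 205, and 221 at 2 h (1.78 ± 0.36, adjusted p 0.00294). *Egr1* was 42.4, 48.9, and 60.3 untreated and 92.7, 134, and 220 at 2 h (1.47 ± 0.29, adjusted p 0.00243). These 3 calls held without any one library, and in each gene replicate 1 was the lowest treated library.

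*Egr2* was 0.943, 1.39, and 1.41 untreated and 1.71, 4.52, and 5.68 at 2 h (1.24 ± 0.34, adjusted p 0.0195). *Egr3* was 3.25, 4.18, and 5.61 untreated and 6.51, 12.98, and 13.8 at 2 h (1.22 ± 0.34, adjusted p 0.0208). *Nr4a2* rose the least, from 8.22, 8.29, and 9.86 to 11.1, 13.4, and 13.6 (0.50 ± 0.15, adjusted p 0.0301). Each of the 3 calls was lost without untreated replicate 3 (0.0745, 0.0848, and 0.0978), 2 h replicate 2 (0.106, 0.0896, and 0.11), or 2 h replicate 3 (0.0611, 0.0703, and 0.0774), those of *Egr3* and *Nr4a2* also without untreated replicate 2 (0.0528 and 0.0853), and those of *Egr2* and *Nr4a2* with only these groups in the fit (0.0898 and 0.0637). In this comparison 3 of 6 macrophage markers fell (summed signal 243 to 316 untreated and 137 to 150 at 2 h), 2 of 6 smooth muscle markers rose (15720 to 17750 and 19490 to 25210), and 1 of 6 fibroblast markers rose, and their part was not tested.

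At 24 h in CsA no member was called against untreated (0 of 6 by limma, against 8.98% of all genes, with 2 of 6 at an unadjusted p under 0.05). *Egr2* lay above all untreated libraries (0.84 ± 0.34, adjusted p 0.136), as did 15.18% of all genes. It was called under quantile normalization (0.0454), and neither edgeR nor DESeq2 called a member. Against untreated, 2 of 6 smooth muscle and 1 of 6 fibroblast markers rose and 2 of 6 endothelial markers fell, and their part was not tested. From 2 to 24 h, 4 of 6 members fell, against 18% of all genes: *Nr4a3* by −1.94 ± 0.25 (adjusted p 0.000203), *Nr4a1* by −1.57 ± 0.36 (adjusted p 0.00713), *Egr1* by −1.55 ± 0.29 (adjusted p 0.00204), and *Egr3* by −1.48 ± 0.34 (adjusted p 0.00796). *Egr2* (−0.40 ± 0.34) and *Nr4a2* (−0.28 ± 0.15) overlapped between the hours and were not called. With only these groups in the fit the call of *Egr3* was lost (0.0824). From 2 to 24 h 3 of 6 macrophage markers rose (summed signal 137 to 150 and 206 to 335) and 1 of 6 smooth muscle markers fell, and their part was not tested.

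Untreated CsA and WT aortas were not called different in any member (0 of 6 by limma, with 1 of 6 at an unadjusted p under 0.05 and 0 by edgeR), whereas 25.2% of all genes were called. *Egr1* (−0.64 ± 0.29, adjusted p 0.11) and *Egr3* (−0.72 ± 0.34, adjusted p 0.135) were lower in CsA in 3 of 3 libraries. So were 24.0% of all genes, which leaves this count no result about the members. DESeq2 called *Egr1* (0.0456), quantile normalization *Egr3* (0.0467), and the fit without untreated WT replicate 1 *Nr4a1* (0.0295). In the same comparison 6 of 6 smooth muscle markers were lower in CsA, and 6 of 6 endothelial, 6 of 6 macrophage, and 5 of 6 adipocyte markers were higher. Smooth muscle markers summed to 15720 to 17750 in CsA and 24880 to 34070 in WT, and adipocyte markers to 2333 to 4177 and 353 to 667. Their part was not tested.

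At 2 h of Ang-II, 3 of 6 members were lower in CsA than in WT, against 1.33% of all genes. *Egr1* was at 24.8% of the WT level (−2.01 ± 0.29, adjusted p 0.00439), *Nr4a2* at 37.3% (−1.42 ± 0.15, adjusted p 0.000569), and *Nr4a3* at 41.2% (−1.28 ± 0.25, adjusted p 0.0289). The libraries did not overlap in these 3 genes, nor in *Egr2* (−1.39 ± 0.34, adjusted p 0.0611) and *Nr4a1* (−1.14 ± 0.36, adjusted p 0.112). All CsA libraries lay below all WT libraries in 10.4% of all genes. *Egr3* overlapped (−0.54 ± 0.34, adjusted p 0.411, interval −1.27 to 0.19). *Egr1* and *Nr4a2* held without any one library, and *Nr4a3* was lost without WT replicate 1 (0.147) or 3 (0.104), without CsA replicate 1 (0.134) or 3 (0.0532). With only these groups in the fit *Egr1* (0.0911) and *Nr4a3* (0.175) were lost, and *Egr2* was called without CsA replicate 2 (0.0421), with a pseudocount of 1 (0.0472), and by DESeq2 (0.0198). No marker of the 5 lists of wall cells (smooth muscle, endothelium, fibroblast, macrophage, and adipocyte) was called here. Smooth muscle markers summed to 19490 to 25210 in CsA and 27590 to 34730 in WT, adipocyte markers to 1014 to 3012 and 520 to 856, and endothelial markers to 748 to 906 and 522 to 582, each without overlap, and their part was not tested.

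The interaction of CsA with Ang-II at 2 h passed for 1 of 6 members, against 0.146% of all genes. This was *Nr4a2*, whose rise was smaller by −1.37 ± 0.22 in CsA (adjusted p 0.04). The call held in 2 of 12 fits without 1 library, those without untreated WT replicate 3 or untreated CsA replicate 1, and the adjusted p ranged from 0.0346 to 0.146. It was lost under quantile normalization (0.0798). *Egr1* (−1.37 ± 0.40, adjusted p 0.167), *Egr2* (−1.16 ± 0.49, adjusted p 0.316), and *Nr4a3* (−1.08 ± 0.36, adjusted p 0.209) had terms below 0 that did not pass. *Nr4a1* (−0.50, interval −1.57 to 0.57) and *Egr3* (0.18, −0.85 to 1.21) had terms whose intervals include 0.

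At 24 h *Nr4a2* was lower in CsA than in WT (8.84, 10.8, and 11.3 against 12.4, 17.8, and 19.1, −0.63 ± 0.15, adjusted p 0.0272, 1 of 6 against 5.58% of all genes). That call was lost without WT replicate 1 (0.0924) or 2 (0.162), without CsA replicate 2 (0.0521) or 3 (0.0864), and with only these groups in the fit (0.143). At 24 h 1 of 6 fibroblast and 1 of 6 macrophage markers were lower in CsA and 1 of 6 adipocyte markers higher, and their part was not tested. The interaction at 24 h passed for 0 of 6 members by limma, against 9.42% of all genes, with 1 of 6 at an unadjusted p under 0.05, and for none by edgeR or DESeq2. Without WT 24 h replicate 3 it passed for *Nr4a2* (0.0235). In this interaction 5 of 6 macrophage and 4 of 6 endothelial markers were called below 0. Of 6 smooth muscle markers 1 was called above 0, and the part of these markers was not tested.

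**Figure D3:**
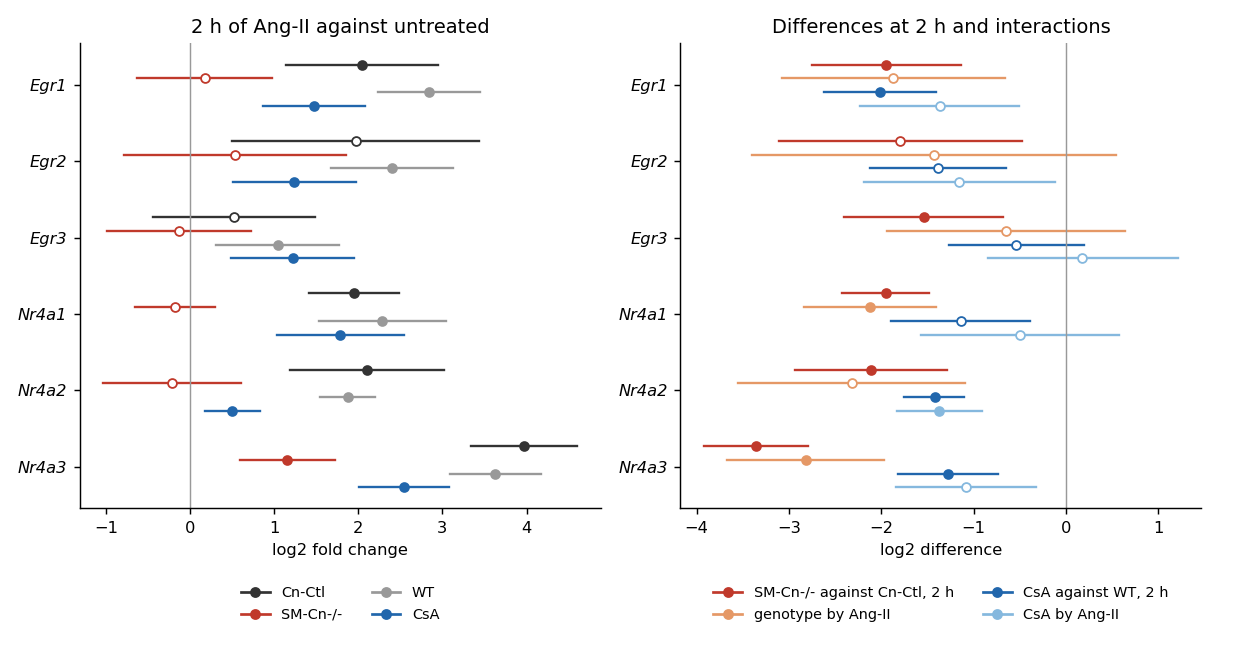
Left, log2 fold change of each gene 2 h after Ang-II in mice of both genotypes (Cn-Ctl, SM-Cn-/-) and of the CsA experiment (WT, CsA). Right, log2 differences between groups at 2 h and the interactions. Bars are 95% intervals from limma and filled points passed an adjusted p of 0.05. In SM-Cn-/- mice only Nr4a3 is filled (1.15), whereas all 6 genes are filled in WT and in CsA.

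Ordered by level over the 6 groups of the CsA experiment, WT at 2 h was first and CsA at 2 h second in 5 of the 6 genes. The exception was *Nr4a2*, in which WT at 24 h (12.4 to 19.1) came between them and overlapped CsA at 2 h (11.1 to 13.6). In *Egr1*, *Egr2*, *Nr4a1*, and *Nr4a3* the first and second places were separate, and in *Egr3* they overlapped. In *Egr1* untreated WT came next, clear of untreated CsA below it, and the last 3 groups overlapped their neighbours at means of 47.4 to 50.5. In *Nr4a1* the 4 groups below overlapped their neighbours at means of 56.7 to 96.0.

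The changes at 2 h can be set side by side for both experiments. *Nr4a1* had a change of −0.18 in SM-Cn-/- against 1.95 in its control, and of 1.78 in CsA against 2.28 in its control. *Nr4a3* had 1.15 against 3.97, and 2.54 against 3.63. *Nr4a2* had −0.21 against 2.10, and 0.50 against 1.87. *Egr1* had 0.17 against 2.05, and 1.47 against 2.84. *Egr2* had 0.54 against 1.97, and 1.24 against 2.40. *Egr3* had −0.13 against 0.52, and 1.22 against 1.04. At 2 h *Egr1* was at 25.9% of Cn-Ctl in SM-Cn-/- and at 24.8% of WT in CsA. The 2 experiments differ in mice, depth, and scaling, and the difference between SM-Cn-/- and CsA was not tested.

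Of the genes around these factors, those that act upstream or with them were counted as lists. Of 5 measured cofactors (*Nab1*, *Nab2*, *Rxra*, *Rxrb*, and *Rxrg*), none was called in Cn-Ctl at 2 h (against 6.23% of all genes), and in WT (against 21.4%) *Nab2*, the EGR corepressor, and *Rxra*, a partner of NR4A receptors, fell by −0.34 ± 0.10 and −0.41. Of 23 upstream factors and kinases, 1 rose and 1 fell in Cn-Ctl at 2 h, against 6.23% of all genes. This count lies near that share and is no result about the list. *Elk4*, an ETS partner of serum response factor, rose (0.73 ± 0.22, adjusted p 0.0486), and *Crtc3*, a CREB coactivator, fell (−1.06 ± 0.25, adjusted p 0.00962). In WT 5 rose and 3 fell, against 21.4% of all genes called, and in CsA 8 rose and 3 fell, against 20.1%. In WT these included *Elk4* (0.58 ± 0.09) and *Crtc3* (−0.86 ± 0.09). None of the 23 was called between SM-Cn-/- and Cn-Ctl at 2 h, against 3.7% of all genes. Between CsA and WT at 2 h 1 of the 23 was called, against 1.33% of all genes. This was *Srf* (−0.49 ± 0.11, adjusted p 0.0395), which encodes serum response factor and is named here for its value. The median change of the 23 was 0.10 in Cn-Ctl and 0.08 in WT.

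Of the genes reported as EGR or NR4A targets in vessel wall cells, *Plau*, which encodes urokinase, rose in Cn-Ctl at 2 h by 2.04 ± 0.43 (adjusted p 0.00412), and *Icam1*, a leukocyte adhesion molecule, by 1.08 ± 0.31 (adjusted p 0.0369). In WT *Plau* rose by 1.96 ± 0.27 (adjusted p 8.17e-05), and *Icam1* was not called (0.58 ± 0.24, adjusted p 0.0964). In SM-Cn-/- *Plau* had −0.72 ± 0.38 (adjusted p 0.441) and *Icam1* 0.41 ± 0.27 (adjusted p 0.531) at 2 h, and neither was called. *Plau* was lower in SM-Cn-/- than in Cn-Ctl at 2 h (−2.65 ± 0.39, adjusted p 0.000183), and its interaction passed (−2.76 ± 0.58, adjusted p 0.0228). In CsA-pretreated aortas *Plau* rose (1.33 ± 0.27, adjusted p 0.00309), and it was not called different from WT at 2 h (−0.39 ± 0.27, adjusted p 0.45).

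Of 25 other immediate early genes, 19 rose at 2 h in Cn-Ctl and 6 in SM-Cn-/- (against 6.23% and 1.13% of all genes), with a median change of 2.25 and 0.30. The 6 members had medians of 2.01 and 0.02. In WT mice 23 of the 25 rose and under CsA 21 (against 21.4% and 20.1% of all genes), with medians of 2.14 and 1.70, beside 2.34 and 1.36 for the members. None fell in any of the 4. *Fosb* (4.59 ± 0.54) and *Arc* (4.59 ± 0.58) rose most in Cn-Ctl and *Klf2* (1.29) and *Dusp1* (1.40) least among those called. In SM-Cn-/- *Fos* had −0.09 ± 0.43 and *Fosb* −0.11 ± 0.48. At 2 h 22 of the 25 were lower in SM-Cn-/- than in Cn-Ctl (against 3.7% of all genes), and 6 were lower in CsA than in WT (against 1.33%), among them *Fos* (−2.71 ± 0.53, adjusted p 0.0263). The interaction passed for 9 with genotype (against 0.513%) and for 1 with CsA (against 0.146%).

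**Figure D4:**
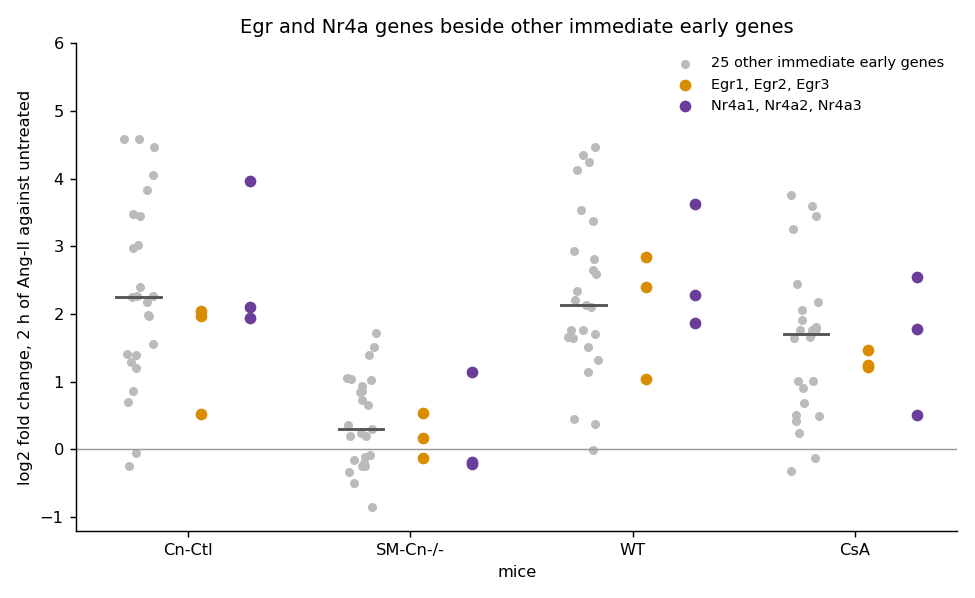
Log2 fold change 2 h after Ang-II in each kind of mouse for 25 other immediate early genes (grey points, line at the median), the Egr genes (orange), and the Nr4a genes (purple). Horizontal spread within the grey points has no meaning. The grey median is 2.25 for Cn-Ctl and 2.14 for WT, against 0.30 for SM-Cn-/- and 1.70 for CsA.

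Likeness of pattern was measured for each member as the smaller of the Pearson correlations of log2 signal over the 22 and the 18 libraries, among 10343 genes. These libraries share groups, depth, and scaling, so that the values are a description. *Nr4a3* was most like *Hsp90aa1* (0.949), *Ifrd1* (0.940), and *Hspa8* (0.938). *Nr4a1* was most like *Dnaja4* (0.920), *Fos* (0.910), and *Ppp1r10* (0.907), and *Egr1* most like *Fos* (0.904), *Zfp36* (0.864), and *Hsp90ab1* (0.862). *Nr4a2* followed *Pde4b* (0.879), *Egr2* followed *Mcl1* (0.848), and *Egr3* had the lowest top value, with *Rock1* at 0.748. Among the members themselves, *Egr1* and *Nr4a1* were most alike (0.864), and *Egr3* and *Nr4a2* least (0.366).

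The genes lie apart in the genome, on GENCODE coordinates of GRCm38. *Egr2* (ENSMUSG00000037868) is at chr10:67535475-67542188 and *Egr3* (ENSMUSG00000033730) at chr14:70077203-70082614, both on the plus strand. *Nr4a1* (ENSMUSG00000023034) is at chr15:101254269-101274795 and *Nr4a3* (ENSMUSG00000028341) at chr4:48045153-48086447, also on the plus strand. *Nr4a2* (ENSMUSG00000026826) is at chr2:57106830-57124003 on the minus strand. *Egr1* (ENSMUSG00000038418) is on the plus strand of chromosome 18. Signal sums reads over a whole gene, so that transcripts of one gene are not told apart.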

How the data were processed

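RNA-seq was analysed from 22 aortic libraries of a genotype experiment and 18 of a CsA experiment, grouped by the sample titles. Per the submitters' processing notes and the methods, the authors aligned reads with Bowtie 0.12.7 and estimated reads per gene with RSEM 1.16 (GRCm38). The authors deposited signal per gene: 0.5 is added to its reads, and the sum is scaled by a library size adjusted between libraries. The scaling step is not given in the sources used here. This unit was found from the values, of which 100% convert to whole reads within 0.05 reads, and it is part of every value. Genes were matched to GENCODE M21 for biotype and coordinates, which left 14424 and 13741 protein-coding genes. A filter of at least 1 signal in at least 2 libraries removed 0 and 3.

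Log2(signal + 0.5) was fitted with limma 3.58.1 in R 4.3.3, 1 mean per group over all groups of a table, a prior variance that follows the mean level, and p-values adjusted by Benjamini-Hochberg. In all, 28 comparisons were made, 17 and 11. Counts of members are over all 6 genes. The fit was tested on simulated data with known changes, and recovered reads served edgeR 4.0.16 and DESeq2 1.42.0 as alternatives. Other alternatives were a pseudocount of 0.1 or 1, a mean signal of at least 5, no filter, all listed genes, only the groups compared, median-ratio scaling, quantile normalization, a replicate block, and each library left out. No pair of replicates matched within counting noise (the lowest chi-square was 6.17 for each degree of freedom). With at most 3 libraries a group, exact permutation tests cannot go below 0.1 and were not used.

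The 6 members and the lists were chosen with earlier results of these data known, and nothing here is independent support for them. The members are named in every group, and of each list up to 5 genes are named, the highest and lowest called changes in Cn-Ctl or WT at 2 h with *Nab2* and *Fos*. Of the list of reported targets some results are not reported here, and its counts are left out. The genes most alike were the 3 with the highest likeness and a mean signal of at least 5, of which some are printed. Same-numbered libraries of different groups did not deviate together (correlations −0.374 to 0.339 in the genotype and −0.389 to 0.377 in the CsA experiment), so that replicate numbers do not pair the samples. The sequence of chromosome 18 is not shown here, and no window was used for *Egr1* and *Egr3*.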

Additional observations from a re-analysis of the deposited data

Results flagged for a closer look

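These 3 results stood out because the response to Ang-II differed between groups by a test of the difference itself. The change of *Nr4a1* after 2 h of Ang-II was smaller in SM-Cn-/- than in Cn-Ctl aortas by −2.13 on the log2 scale (SE 0.34, limma adjusted p 0.0033). All 3 treated SM-Cn-/- libraries lay below all 3 treated Cn-Ctl libraries, as in 11.99% of all genes. The change of *Nr4a3* was smaller by −2.82 (SE 0.41, limma adjusted p 0.00161), again with 3 of 3 libraries below. The change of *Nr4a2* was smaller in CsA than in WT aortas by −1.37 (SE 0.22, limma adjusted p 0.04). All 3 treated CsA libraries lay below all 3 treated WT libraries, as in 10.4% of all genes. This call was lost in 10 of 12 fits without 1 library. Treated SM-Cn-/- mice were kept after proof of deletion and by the study had no raised pressure, whereas treated Cn-Ctl mice were selected for raised pressure. The loss of Cn, the presence of Cre, the pressure, and the selection cannot be told apart in the first 2 results. Those 2 also rest on 2 untreated Cn-Ctl libraries, left after the study discarded a deviating replicate.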

How the results depend on the processing

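Depth and 2 to 3 libraries per group limit these results: *Egr2* had 0 to 81 reads per library in the genotype experiment, and leaving out 1 untreated or 24 h Cn-Ctl library leaves a lone library assumed to vary like the other groups. The mean signal filter of at least 5 removes *Egr2*, which has no value there. No direction of a called value reversed. Over the single genes and other alternatives, 1771 values kept direction and side of the threshold, 19 lost and 20 gained a call, and 10 moved in other ways, and with 1 library left out these were 986, 72, 8, and 56. The cause of these changes was not tested. With only the groups compared, members called became 0 in Cn-Ctl and SM-Cn-/- from 6 to 24 h, in SM-Cn-/- at 2 h, and in CsA against WT at 24 h, and 1 in SM-Cn-/- against Cn-Ctl at 6 h and in CsA against WT at 2 h, where fewer libraries estimate the spread. DESeq2 called 1 member in Cn-Ctl at 24 h, 2 from 2 to 6 h, 4 and 1 in the genotype interaction at 2 and 6 h, 5 in WT at 24 h, and 1 in untreated CsA against WT. Quantile normalization, under which the median of all genes in untreated CsA against WT was −0.112 (−0.0162 in the main fit), called 1 there, 1 in CsA at 24 h, and 0 in the CsA interaction at 2 h.

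Replicate numbers do not pair the samples. With the replicate block, 1 member was called in Cn-Ctl at 24 h (*Egr3*, adjusted p 0.0432) and 0 in the CsA interaction at 2 h (*Nr4a2*, 0.0525). *Egr3* in WT at 2 h (0.0605) and *Nr4a3* in CsA against WT at 2 h (0.0548) were lost, and *Nr4a1* from 6 to 24 h in Cn-Ctl was gained (0.0322).

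Leaving out each library in turn, members called ranged from 1 to 3 in Cn-Ctl at 6 h, 1 to 2 from 2 to 6 h, 0 to 4 from 6 to 24 h, 0 to 1 in SM-Cn-/- at 2 h and from 6 to 24 h, 1 to 3 in SM-Cn-/- against Cn-Ctl at 6 h, 1 to 2 in the genotype interaction at 2 h, and 3 to 6 in CsA at 2 h. They ranged from 0 to 1 in CsA against WT untreated and at 24 h and in the CsA interaction at 2 and 24 h.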
